A study of Mus musculus with 2 samples.

Results

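Regulators known to be induced directly by glucocorticoids were followed through 10 genes: Tsc22d3, Klf9, Dusp1, Cebpd, Sgk1, Zbtb16, Errfi1, Metrnl, Il1r2 and Tle1. They were chosen by name, with earlier results of these data known. Each array carried 16 probes for these 10 genes, out of 56605 probes and 23462 named genes in all. Both cultures held mouse CD8 T cells, prepared as naive CD44-low CD62L-high cells from the spleen of C57BL/6 animals, and no genetic alteration is named for either. In the prednisolone culture the synthetic glucocorticoid was present at 1 µM, and in the vehicle culture it was replaced by vehicle. All cells were activated over 2 days by immobilized anti-TCR-β (3 µg/ml) and anti-CD28 (1 µg/ml) in interleukin-2 (10 ng/ml), spent 3 days in interleukin-2 on a fresh plate, and gave RNA on day 5. Prednisolone is described for the stimulation only, so the comparison asks which of these transcripts still differed at the end of a culture for which no drug is described, and carry-over of the drug was not measured. Each condition had 1 array, so the comparison has no replicate check and no p-value, and how far cultures of 1 kind vary is unknown. The sources used here do not say how many mice each culture came from.

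Glucocorticoids bind the glucocorticoid receptor, a nuclear receptor that moves to the nucleus and acts as a transcription factor at glucocorticoid response elements. Genes with such elements respond within hours in many tissues, and several of them encode proteins that restrain inflammatory signalling. In T cells these include a leucine zipper protein that binds NF-κB and AP-1 proteins, and a phosphatase of MAP kinases. Another of the genes encodes a kinase that acts on FOXO factors and sodium transport. Binding of the receptor was not measured here, so "direct" is background knowledge and not a result of these data.

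Of the 8 members that had a value, 6 differed by 2-fold or more towards higher signal with prednisolone and none towards lower signal. The same cut took 6.87% of all genes with a value on the higher side and 7.81% on the lower side. Klf9 stood highest of these 8, followed by Cebpd, Tsc22d3, Dusp1, Metrnl and Tle1, all between 2.17-fold and 9.37-fold. Errfi1 had the same signal on both arrays within the scanner software's error. Il1r2, at the edge of detection, had only a bound (at least 1.44-fold lower). Sgk1 and Zbtb16 had no value. On the prednisolone array the local background around the single Sgk1 spot and around 1 of the Zbtb16 spots had been flagged as an outlier, although the spots themselves had not, and the other Zbtb16 probe was not well above background. With such spots kept, Sgk1 was 12.1-fold higher, the widest difference among the 10 genes. Zbtb16 was 2.23-fold higher (log2 difference of 1.16 ± 0.40), with a vehicle signal not well above background. These 2 genes brought the count on the higher side to 8 of 10 (all genes under that setting: 6.91% on the higher side, 7.93% on the lower). The members were chosen with earlier results of these data known, so these counts describe them and support nothing further.

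RefSeq windows (assembly GRCm38.p6) that run from 250 bases before a transcript start to 50 bases after it were at hand for 8 of the 10 genes, in 16 windows, since several genes have more than 1 start. Cebpd and Zbtb16 have no entry. Both strands were searched for the hexamer AGAACA or its reverse complement TGTTCT, which form the arms of the glucocorticoid response element. The search also took in the full element (AGAACA, 3 bases, TGTTCT, which contains both arms), the cyclic AMP response element TGACGTCA and the GC box GGGCGG. A further pattern was TGANTCA, where N is any base. It is AP-1-like, but looser than the AP-1 consensus TGA(C/G)TCA. Below are the 250 bases before 1 start each for Sgk1, Tsc22d3, Klf9, Dusp1 and Errfi1. For Sgk1 this is the start whose window holds the full element, and for Tsc22d3 the start whose window holds an arm. For Errfi1 it is the start whose window holds a cyclic AMP response element. Matches to any of these motifs except the GC box are in capitals. The windows of Sgk1 and Klf9 are shown because these genes differed most between the cultures, and that of Errfi1 because it differed least. Whether any motif goes with the differences was not tested.
Sgk1 (chr10:21993640-21993889, + strand): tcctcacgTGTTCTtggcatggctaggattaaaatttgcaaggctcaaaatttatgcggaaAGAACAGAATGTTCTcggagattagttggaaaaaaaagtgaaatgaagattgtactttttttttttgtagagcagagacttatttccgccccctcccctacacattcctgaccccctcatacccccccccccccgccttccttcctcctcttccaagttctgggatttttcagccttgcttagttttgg
Tsc22d3 (chrX:140600523-140600772, - strand): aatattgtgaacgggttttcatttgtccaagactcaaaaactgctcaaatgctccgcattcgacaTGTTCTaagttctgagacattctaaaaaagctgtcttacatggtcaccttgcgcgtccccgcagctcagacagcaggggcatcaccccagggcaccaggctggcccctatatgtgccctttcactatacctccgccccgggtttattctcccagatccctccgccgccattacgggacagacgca
Klf9 (chr19:23140976-23141225, + strand): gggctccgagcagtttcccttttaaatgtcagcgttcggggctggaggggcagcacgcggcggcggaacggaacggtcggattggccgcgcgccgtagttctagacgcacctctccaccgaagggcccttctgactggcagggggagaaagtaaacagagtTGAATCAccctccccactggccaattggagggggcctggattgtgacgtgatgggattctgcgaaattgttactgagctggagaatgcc
Dusp1 (chr17:26508473-26508722, - strand): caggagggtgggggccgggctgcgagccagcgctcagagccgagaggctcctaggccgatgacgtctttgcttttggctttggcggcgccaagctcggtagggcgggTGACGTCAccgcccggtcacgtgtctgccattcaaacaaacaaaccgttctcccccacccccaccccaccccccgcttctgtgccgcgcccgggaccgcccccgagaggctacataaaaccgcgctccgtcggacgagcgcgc
Errfi1 (chr4:150854820-150855069, + strand): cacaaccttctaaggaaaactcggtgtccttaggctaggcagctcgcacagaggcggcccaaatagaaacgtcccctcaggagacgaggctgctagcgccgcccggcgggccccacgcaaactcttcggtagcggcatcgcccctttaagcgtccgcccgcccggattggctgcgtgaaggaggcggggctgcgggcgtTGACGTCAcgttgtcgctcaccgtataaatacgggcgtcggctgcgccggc

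The Sgk1 window held the full element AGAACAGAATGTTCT, which begins 189 bases before the start. Of 32851 windows in the RefSeq table, 3 (0.00913%) held a full element, and the others belong to Acnat2 and Gm35041. A hexamer arm lay in 4 of the 16 member windows, 3 of Sgk1 and 1 of Tsc22d3, against 19.0% of all windows. Sgk1 had more windows than any other member, and so more places for a match, and its remaining windows held no arm. Which start was used in these cells was not measured. Klf9 held no arm but a match to the looser AP-1-like pattern (1 of 16 member windows, against 7.81% of all). That match, TGAATCA, is not the AP-1 consensus. Dusp1 and Errfi1 each held a cyclic AMP response element (2 of 16 member windows, against 1.79% of all) and no arm. A GC box was present in 8 of the 16 member windows and in 35.7% of all windows. No arm was found in the windows of Metrnl, Il1r2 and Tle1. These are matches of letters in short windows and say nothing of where the receptor binds.

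Signals below are processed intensities, already background-subtracted by the scanner software, and each ± is that software's technical error. Differences are log2 of the signal relative to each array's 75th percentile (386.9 with prednisolone and 400.4 with vehicle), prednisolone minus vehicle, a scaling that adds 0.05 to each. Intensities of different probes are not comparable with each other.

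**Figure D1:**
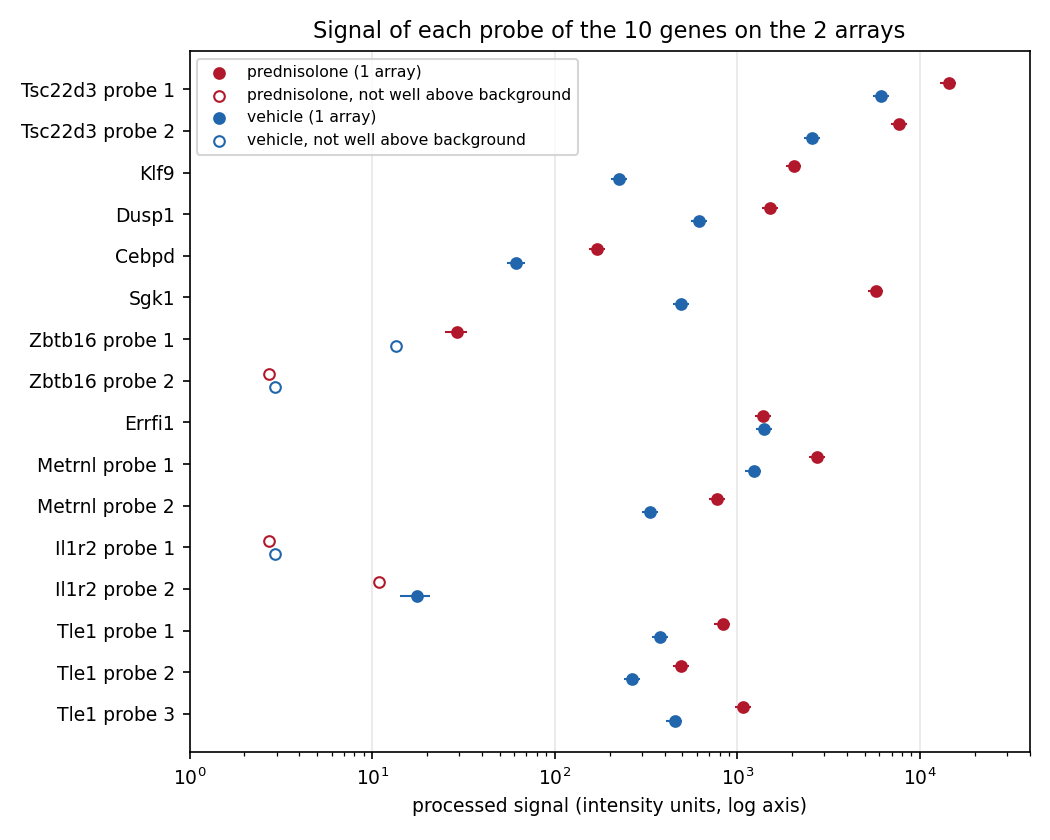
Processed signal (intensity units, log axis) of each of the 16 probes on the prednisolone array (red) and the vehicle array (blue), with bars for the scanner software's error where a spot was well above background. Prednisolone lies to the right of vehicle for both Tsc22d3 probes, Klf9, Dusp1, Cebpd, Sgk1, both Metrnl probes and all 3 Tle1 probes, and the Errfi1 points overlap within their errors.

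Among the transcription regulators, Klf9, a Krüppel-like zinc finger factor, had a signal of 2044 ± 204 with prednisolone, against 226 ± 22.8 with vehicle. This 9.37-fold difference (3.23 ± 0.20) was exceeded by 34 of the 11969 genes measured on both arrays. Cebpd, a basic leucine zipper factor of the C/EBP family, had a signal of 171 ± 17.3 with prednisolone, against 61.7 ± 6.76 with vehicle. The vehicle spot was dim, yet flagged as well above background, and the 2.88-fold difference (1.52 ± 0.22) shrank to 0.93 when the background was corrected by another method, normexp. Both genes were measured with a single probe each.

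Tle1, a Groucho-type corepressor that binds DNA through other factors, was measured by 3 probes. Probe 3 had a signal of 1075 ± 108 with prednisolone, against 453 ± 45.4 with vehicle. Probe 2, which is assigned to another RefSeq transcript of the gene, had a signal of 495 ± 49.5 with prednisolone, against 266 ± 26.7 with vehicle. Probe 1, flagged for its local background on both arrays, had 834 ± 83.4 with prednisolone, against 377 ± 37.9 with vehicle. The 3 differences were 1.30, 0.95 and 1.19, so the probes lay on either side of 2-fold, and the mean of the unflagged pair was 1.12 ± 0.14 (2.17-fold). With normexp the gene was at 0.95.

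Zbtb16 encodes PLZF, a factor that directs the innate-like program of natural killer T cells. Probe 1 had a signal of 29.1 ± 3.99 with prednisolone, against 13.5 ± 3.23 with vehicle. It was well above background on the prednisolone array only, where the local background was flagged. The 2.23-fold difference (1.16 ± 0.40) shrank to 0.32 (log2) with normexp. Probe 2 stayed near background on both arrays, with 2.74 and 2.94 for prednisolone and vehicle. The markers of NK, NKT and γδ T cells had 4 of 7 genes with a probe above background with prednisolone and 3 of 7 with vehicle, and their summed signal was 1311 with prednisolone and 676 with vehicle, mostly from Cd163l1 (872 with prednisolone and 340 with vehicle). Klra8 was at least 4.51-fold and Cd163l1 2.66-fold higher, while Klrb1c was at 0.07 and Sox13 at −0.16 (log2). Ncr1 and Il23r stayed near background on both arrays, and the part of such cells in the Zbtb16 signal was not tested. In RNA from whole cultures, fewer cells of a type and less RNA per cell cannot be told apart.

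Among the brakes on signalling, Tsc22d3, the gene of the leucine zipper protein GILZ, was bright with both probes. Probe 1 had a signal of 14375 ± 1438 with prednisolone, against 6157 ± 616 with vehicle. Probe 2 had a signal of 7734 ± 773 with prednisolone, against 2582 ± 258 with vehicle. Both probes were over 2-fold higher, at 1.27 and 1.63, and the gene's mean was 1.45 ± 0.14 (2.74-fold). Of the 11969 genes, 294 had a larger difference.

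Dusp1, a dual-specificity phosphatase that inactivates MAP kinases, had a signal of 1513 ± 151 with prednisolone, against 617 ± 61.8 with vehicle. The difference was 2.54-fold (1.34 ± 0.20) and lay between 1.29 and 1.58 under all 14 processing settings.

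Errfi1, which encodes a feedback inhibitor of the epidermal growth factor receptor family, had a signal of 1390 ± 139 with prednisolone, against 1410 ± 141 with vehicle. Its difference of 0.03 ± 0.20 was within the software's error, and its sign turned with the scaling, from −0.02 without scaling to 0.27 with spike-in scaling.

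Sgk1 encodes a serine/threonine kinase that acts downstream of the PI3 kinase pathway on FOXO factors and on the ubiquitin ligase NEDD4L. Its single probe had a signal of 5746 ± 575 with prednisolone, against 492 ± 49.2 with vehicle. Before background correction the spot read 5372 over a local background of 24 with prednisolone, and 509 over 25 with vehicle. The median local background of an array was 28 with prednisolone and 30 with vehicle. The 12.1-fold difference (3.60 ± 0.20) was 3.36 with normexp and 3.84 with spike-in scaling, and ranked 28th among the 12900 genes measured on both arrays when spots flagged for their background were kept.

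Flagged and unflagged spots of the same probe could be set side by side for the 300 probes printed 10 times on each array. On the prednisolone array, 326 spots of bright probes carried a background flag only, and they deviated from the unflagged spots of the same probe by a median of −0.01 (log2) with an SD of 0.059. The 2381 unflagged spots deviated from the others of their probe with an SD of 0.060. On the vehicle array the SDs were 0.057 for 264 flagged and 0.058 for 2422 unflagged spots, and the widest deviation of any flagged spot was 0.28. These are other, bright probes within an array. They do not bear on the spread between cultures, and the part of the flag in the Sgk1 and Zbtb16 values was not tested.

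Of the secreted and cell surface members, Metrnl, which encodes the secreted protein meteorin-like, had closely matching probes. Probe 1 had a signal of 2739 ± 274 with prednisolone, against 1229 ± 123 with vehicle. Probe 2 had a signal of 778 ± 77.8 with prednisolone, against 334 ± 33.5 with vehicle. Their differences were 1.21 and 1.27, which gave 2.36-fold for the gene (1.24 ± 0.14). Il1r2, the decoy receptor for interleukin-1, was dim. Probe 2 had 10.9 ± 2.88 with prednisolone, not well above background, against 17.5 ± 3.37 with vehicle, a difference of −0.64 ± 0.47. In the main setting this bounds it at at least 1.44-fold lower. The bound shrank to −0.17 (log2) with normexp and to −0.29 with spike-in scaling. Probe 1 stayed near background on both arrays, with 2.74 and 2.95 for prednisolone and vehicle. Il1r2 is abundant in neutrophils, and 4 of 7 neutrophil markers had a probe above background on each array, Cxcr2 with prednisolone only and Mpo with vehicle only. Their summed signal was 35992 with prednisolone and 32446 with vehicle, most of it from Csf3r (34921 with prednisolone and 31022 with vehicle, whose spot carried a background flag and had no value in the main setting), and S100a8 and S100a9 stayed near background on both. Cxcr2 was at least 5.67-fold higher, Ly6g 1.48-fold lower, Mpo at least 1.34-fold lower and Elane at 0.11 (log2). The part of such cells in the Il1r2 and Cebpd signals was not tested.

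**Figure D2:**
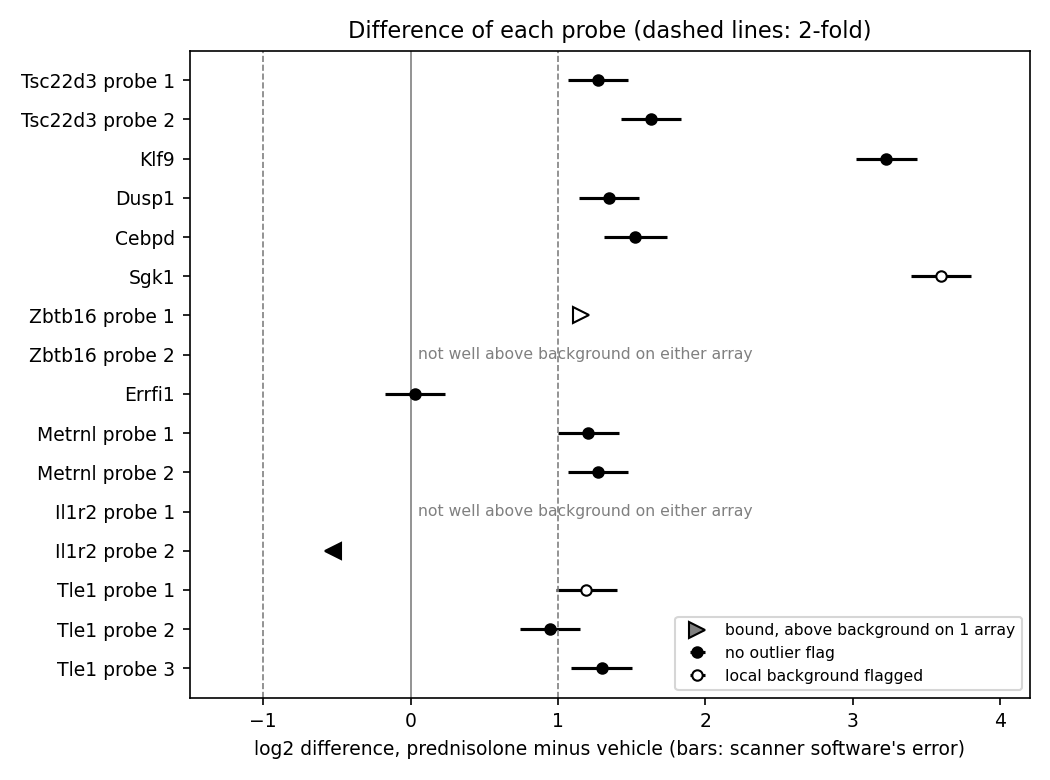
Log2 difference, prednisolone minus vehicle, of each probe with the scanner software's error (bars), for unflagged probes (filled), probes with a flagged local background (open) and bounds (triangles). Of the 10 unflagged probes above background on both arrays, 8 lie beyond the 2-fold line on the right, and Errfi1 lies at 0.03.

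Of the 10 unflagged probes well above background on both arrays, 8 were 2-fold or more higher, where 5.17% of the 24548 such probes on the arrays passed that cut on the higher side and 5.91% on the lower side. The exceptions were Errfi1 and Tle1 probe 2. Among genes with more than 1 such probe, the gap between probes was 0.06 for Metrnl, 0.35 for Tle1 and 0.36 for Tsc22d3, all narrower than the genes' differences. The median of the 7 members measured on both arrays was 1.34, and that of all 11969 genes was 0.00.

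**Figure D3:**
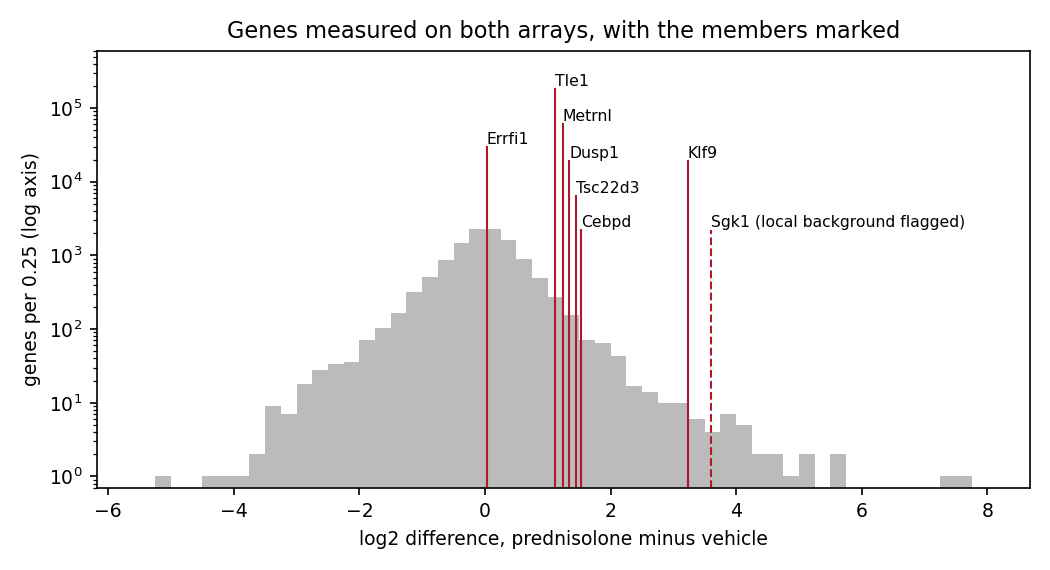
Number of genes (log axis) by log2 difference, prednisolone minus vehicle, in bins of 0.25 for the 11969 genes measured on both arrays, with red lines at 7 members and a dashed line at Sgk1. Errfi1 sits at the centre, 5 members crowd between 1.12 and 1.52, and Klf9 and Sgk1 lie at 3.23 and 3.60.

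Next to the members stood the other genes known to be glucocorticoid-induced in some tissue, a list of 39 genes. A value was available for 29, of which 8 were 2-fold or more higher, 3 were lower by as much and 18 lay between, with a median of 0.30 over the 28 measured on both arrays. The background for these counts is 6.87% of all genes higher and 7.81% lower. With background-flagged spots kept, 34 had a value, of which 7 were higher and 3 lower by that cut, with a median of 0.27. Under that setting 6.91% of all genes were higher and 7.93% lower. Levels here are given as a percentage of the array's 75th percentile. Cited2, a coactivator-binding transcription regulator, stood at 3555% with prednisolone, against 573% with vehicle (6.20-fold). Fkbp5, a chaperone partner of the glucocorticoid receptor, stood at 1746% with prednisolone, against 294% with vehicle (5.94-fold). Txnip, which restrains glucose uptake, and Anxa1, which encodes the anti-inflammatory annexin A1, were 4.82-fold and 4.60-fold higher. At the other end were Tnfaip3 (3.09-fold lower), the gene of the NF-κB inhibitor A20, Lpin1 (3.09-fold lower), a phosphatidate phosphatase, and Cdkn1c (2.07-fold lower), a cyclin-dependent kinase inhibitor. Cdkn1c was within 2-fold with normexp (−0.54) and spike-in scaling (−0.81). Klf9 and Sgk1 were farther from 0 than any of its measured genes.

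The families of the members were set beside them to see whether relatives on the array differed too. Over the 10 family lists 46 of 65 genes had a value, 6 were 2-fold or more higher and 5 lower, and the median was 0.13. Of all genes, 6.87% were higher and 7.81% lower by that cut. With normexp the family counts were 2 and 3, and the shares of all genes 3.27% and 3.31%. Among the other Krüppel-like factors 3 of 10 were higher and none lower. Klf3 stood at 240% with prednisolone, against 118% with vehicle (1.03), and was within 2-fold with normexp (0.90) and without scaling (0.98). Klf14 and Klf12 were seen with prednisolone only, at least 3.04-fold and 2.25-fold higher, near the background and within 2-fold with normexp (0.46 and 0.37).

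The other MAP kinase phosphatases split, since 3 of 8 were higher by 2-fold or more and 2 lower. Dusp7 stood at 2747% with prednisolone, against 687% with vehicle (a log2 difference of 1.999), and Dusp2 at 5498% with prednisolone, against 1738% with vehicle (3.16-fold). Dusp5 was 2.22-fold higher from a dim signal (0.56 with normexp). Dusp9 was 2.46-fold lower, also dim (−0.36 with normexp), and Dusp16 was 2.19-fold lower (−0.90 with normexp and −0.89 with spike-in scaling). Dusp7 and Dusp2 had larger differences than Dusp1. Of the 5 MAP kinase genes whose products DUSP1 and its relatives act on, none was 2-fold apart, with Mapk3, which encodes ERK1, farthest from 0 at −0.96 (−1.005 without scaling).

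Ddit3, the stress-induced C/EBP relative CHOP, stood at 58.1% with prednisolone, against 372% with vehicle (6.39-fold lower), on the opposite side of 0 from Cebpd. Bcl6, a repressor of the same BTB zinc finger class as PLZF, stood at 18.9% with prednisolone, against 135% with vehicle (7.13-fold lower), and was the 1 of 9 members of its list at least 2-fold apart. Tle4, another Groucho corepressor, stood at 527% with prednisolone, against 1075% with vehicle (2.04-fold lower, or −0.79 with spike-in scaling), while Tle1 was 2.17-fold higher. Of the TSC22 relatives none of 3 was 2-fold apart, with Tsc22d1 at 0.41 (−0.01 with no filter on dim probes). Sgk3, the related kinase, was at 0.06 ± 0.14 (−0.02 with its brightest probe), and Metrn, the relative of Metrnl, at 0.32 ± 0.20. The interleukin-1 receptors and ligands had values for 5 of 10 genes and none was 2-fold apart, with Il1rap, the shared accessory chain, at −0.77. Il1r1, Il1a and Il1b, the receptor and ligands that Il1r2 competes with or binds, had no probe well above background on the 2 arrays. The receptors that ERRFI1 inhibits were nearly undetected, with Egfr at least 1.40-fold higher near the background and no value for Erbb2, Erbb3 and Erbb4.

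Of the genes that SGK1 acts with, 8 of 9 had a value and Nedd4l, its ubiquitin ligase substrate, was the 1 at least 2-fold apart. It stood at 423% with prednisolone, against 957% with vehicle (2.26-fold lower, or −0.94 with spike-in scaling). Foxo1 and Foxo3, the FOXO substrates on this list, named after their values were seen, were within 2-fold at 0.21 and −0.54.

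Both arrays had 53.5% of spots well above background and no saturated spot. All 8 genes of the CD8 T cell list were above background on both arrays, though only Cd8a and Cd8b1 set CD8 cells apart from other T cells. Of the 6 with a value, 5 were below 0, with a median of −0.38. Cd8a was at −0.01, Cd2 at 0.10, Cd3d at −0.61 and Cd247 at −0.95. The list's summed signal, to which Cd3d gave the most, was 265794 with prednisolone and 356049 with vehicle. Of 7 myeloid markers, 4 were above background with prednisolone and 3 with vehicle, with a summed signal of 4236 with prednisolone and 5080 with vehicle, and Lyz2, Adgre1 and Itgax stayed near background on both. Cd68 was 4.65-fold lower, while Csf1r was at 0.23, Itgam at 0.02 and Cd14 at least 1.10-fold higher. Of the CD4 T cell markers 2 of 3, and of the B cell markers 2 of 5, were above background on each array. The 8 spike-in probes were lower by 0.24 (log2) on the prednisolone array, so spike-in scaling moves every difference up by that amount.

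**Figure D4:**
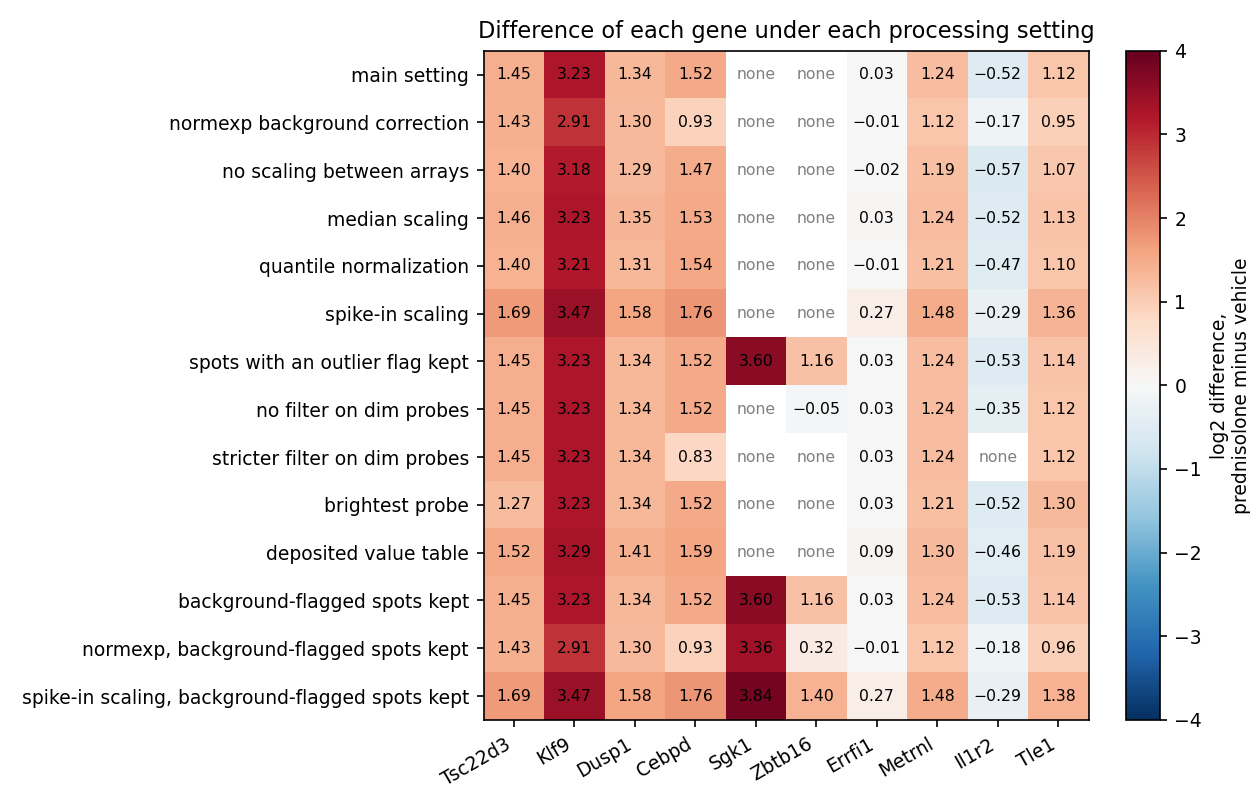
Log2 difference, prednisolone minus vehicle, of each member under the main setting and 13 other processing settings ("none" where a gene had no value). Tsc22d3, Klf9, Dusp1 and Metrnl stay above 1 in all 14 rows, Cebpd and Tle1 drop below 1 with normexp, and Sgk1 has a value in the 4 rows that keep flagged spots.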

How the data were processed

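RNA of 1 prednisolone and 1 vehicle culture was hybridised to 1-colour Agilent mouse arrays (100 ng of total RNA, Cy3, per the labels). Per the file headers, the deposited scanner output gives linear intensity values from Agilent Feature Extraction 12.0.3.1, already background-subtracted and detrended within each array but on no common scale. The deposited table of intensity values is the same signal times 1 constant per array (0.858 for prednisolone and 0.792 for vehicle), with column medians of 16.4 and 16.2, linear and not centred. No source used here gives the rule behind the constants. Both arrays came from 1 slide and scan. All columns of per-sample values were tied to a sample.

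From these, log2 of the processed signal was computed relative to the 75th percentile of the array's 59305 non-control spots (Python 3.11.15, pandas 2.3.3). Spots with any outlier flag were left out. Probes well above background on both arrays were averaged to give the gene. Where 1 array only was above background, the difference is a bound against the higher of the dim probe's value and the lowest value above background. The software's error was combined over probes as independent. Transcript accessions matched to RefSeq (GRCm38.p6) named 33767 probes. The headers name build mm9, so only the RefSeq windows carry coordinates. "At least 2-fold" is a size rule with no test, and the number of arrays limits the precision. Members and lists were chosen with earlier results of these data known. The text names all members, up to 4 genes at least 2-fold apart in each direction of each list, or else the member of a list farthest from 0, and other genes only to account for a list or where the text says so. Alternatives changed the background correction (limma 3.58.1 normexp, offset 50, on the median spot signal in place of the planned mean), the scaling, the flags, the filter on dim probes and the probe summary. The calculation recovered known changes put into simulated data.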

Additional observations from a re-analysis of the deposited data

How the results depend on the processing

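No paired analysis was possible because each condition had 1 array. The count of members at least 2-fold higher was 6 of 8 in the main setting. It lay between 4 of 8 (normexp, with 3.27% of all genes) and 8 of 10 (spots flagged for their background kept, with 6.91%). None was counted as at least 2-fold lower under any of the 14 settings, where 3.31% (normexp) to 8.39% (no scaling) of all genes were. None was counted as lower at a fold of 1.5 either, where 16.7% of all genes were lower and 15.6% higher. Il1r2 entered the main setting as a bound of at least 1.44-fold lower, which cannot show that it was within either fold. Its probe 2 read 1.56-fold lower, with a prednisolone signal not well above background. Errfi1 turned sign with normexp (−0.0094, with flagged spots kept too), without scaling (−0.021) and with quantile normalization (−0.013), all within its software error, and Zbtb16 was at −0.053 with no filter on dim probes, from its dim probe 2 alone. Cebpd was 0.93 with normexp and at least 0.83 with the stricter filter (signal of at least 100), under which its vehicle spot was too dim. Of all genes with a value, 902 were higher and 1026 lower in the main setting, against 429 and 434 with normexp, 1429 and 671 with spike-in scaling, 1460 and 1701 with no filter on dim probes, and 532 and 525 with the stricter filter. Spike-in scaling moved the share of higher genes among those 2-fold apart to 68.0%, against 46.8%, and the median of all genes to 0.24. The 2 settings that combine kept background-flagged spots with normexp or spike-in scaling, and the 1 that keeps those spots alone, were chosen after seeing the data. The causes were not tested. Zbtb16, Il1r2 and Cebpd are limited by low signal.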

Other observations

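Background flags left out further genes beside Sgk1. When spots flagged only for their local background were kept, 1000 more genes had a value, 903 of them on both arrays, with a median difference of 0.02 and an SD of 0.77, against 0.00 and 0.73 for the 11969 genes of the main setting. Sgk1 was the third highest of the 903, of which 58 lay 2-fold or more above 0 and 76 as far below it. Such flags made up 97.6% of all outlier flags on the prednisolone array and 96.7% on the vehicle array.

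Relatives and partners of the members were among them. The following were named after their values were seen, each from 1 probe whose own spot was not flagged. Klf2, a Krüppel-like factor of quiescent and recirculating T cells, had a signal of 16148 with prednisolone, against 4190 with vehicle (3.99-fold higher). Dusp4, a nuclear MAP kinase phosphatase, had a signal of 32.3 with prednisolone, against 138 with vehicle (4.14-fold lower). Ndrg1, a substrate of SGK1, had a signal of 9624 with prednisolone, against 22925 with vehicle (2.30-fold lower, but within 2-fold with spike-in scaling). Mt2, a metallothionein on the list of other glucocorticoid-induced genes, had a signal of 33425 with prednisolone, against 24194 with vehicle (1.43-fold higher).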
